A study of Mus musculus with 40 samples.

Results

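The 8 genes described here encode the interleukin-7 (IL-7) receptor and the JAK and STAT5 proteins that carry its signal, with a pair of their targets: Il7r, Il2rg, Jak1, Jak3, Stat5a, Stat5b, Socs3 and Pim1. They were followed through ChIP-seq of mouse small pre-B cells. A region belonged to a gene where that gene had the start nearest to it, within 200 kb, in the annotation of the deposited tables. By this rule the 8 genes had 295 of the 863771 regions counted over all targets, of which 644354 had a gene within 200 kb. CTCF had 27 member regions, NIPBL 14, RAD21 22, SMC3 26, WAPL 29, H3K27ac 80 and H3K4me1 97. All were tested except 1 SMC3 region of Il7r, which had too few reads, so 294 entered the comparisons.

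IL-7 holds B cell progenitors in survival and division through a receptor made of the IL-7 receptor alpha chain and the common gamma chain. The kinases JAK1 and JAK3, bound to these chains, phosphorylate STAT5A and STAT5B, which then bind DNA and switch on target genes. As cells become small pre-B cells, this signal declines, division stops and the Ig kappa locus is opened for recombination.

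Small pre-B cells were sorted by flow cytometry from mouse bone marrow, and 2000000 were used per ChIP. Wild type cells (WT) and cells of Brwd1-/- mice (KO, labelled BRWD1KO) were used fresh; WT cells cultured for 2 h with 126 nM Oligomycin A, an inhibitor of the mitochondrial ATP synthase, form the group labelled ATPneg. The series has 36 ChIP libraries, 2 per target and condition and biological replicates by its design text, and 4 inputs. BRWD1 is a bromodomain protein that reads acetylated histones, CTCF marks loop anchors, RAD21 and SMC3 are cohesin subunits, NIPBL loads cohesin, WAPL releases it, and H3K4me1 and H3K27ac are histone marks of enhancers and active regulatory DNA. Age, sex and strain are not given in the sources used here, nor is the part of Brwd1 that was deleted, and the knockout is not said to be limited to B cells. The untreated WT cells were not cultured, so culture and drug cannot be told apart in ATPneg, and that group has peak lists without counts.

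Several labels disagree. The KO libraries of H3K27ac and H3K4me1 carry the genotype WT in 1 field and knockout in their titles and descriptions. The peak names inside the H3K27ac KO lists name H3K4me1, those inside the H3K4me1 WT lists name the H3K27ac knockout, and NIPBL KO replicate 2 and WT replicate 1 carry each other's names. Groups follow the titles, or the descriptions where a title names no genotype, and histone results are given as those of the libraries labelled KO and WT. Histone libraries were compared over 1192 long regions, of more than 600 bp in H3K27ac, that overlapped by 80% both ways between the 2 marks. The median region has 148 bp in H3K27ac and 154 bp in H3K4me1. Over these 1192, the H3K27ac KO and H3K4me1 KO libraries had a Pearson r of 0.975 to 0.976 across regions, which share length and base composition. The H3K27ac KO and H3K27ac WT libraries had a lower one, 0.954 to 0.956. Replicates reached 0.995 to 0.997. Without the 4 libraries whose fields disagree, no KO against WT comparison remains for either mark. Without NIPBL KO replicate 2 or without WT replicate 1, no NIPBL member region was called, as in the full comparison.

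Libraries also differed in depth, from 3784506 reads within regions in NIPBL KO replicate 2 to 30496715 in WAPL KO replicate 1. For SMC3, RAD21 and NIPBL, KO libraries held 3784506 to 7415143 reads and WT libraries 15416715 to 24962590, so depth and genotype cannot be told apart for these targets. CTCF WT replicate 2 had 17055094 reads against 3880112 to 5033230 in the other CTCF libraries. ChIP reads over Brwd1 do not measure its product and check no genotype label. As a check of the columns, regions with peaks in both KO lists and no WT list had a positive median log2 ratio of KO to WT for every target, from 0.50 to 3.42. Regions with peaks in both WT lists and no KO list had a negative one, from -1.49 to -0.13, except in NIPBL (0.04). All 10 pre-B marker genes had an H3K4me1 region within 2 kb of their start, as did 4 of 7 T cell, 4 of 7 myeloid and 2 of 6 erythroid marker genes. For H3K27ac the lists were alike, with 7 of 10 pre-B, 5 of 7 T cell, 4 of 7 myeloid and 3 of 6 erythroid marker genes.

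The proximal promoters give the sequence context of the genes whose starts changed most. RefSeq sequences (build GRCm38.p6; the ChIP regions are in mm9) matched all 8 genes, with 11 promoters. The 250 bases before the start are shown for Il7r, Jak1, Socs3 and Pim1. Capitals mark TTCNNNGAA, the palindromic form in which STAT5 sites are usually written, which reads the same on both strands. It occurs in 2306 of 32851 mouse promoters of this length (7.02%), and among the 11 in the 2 shown with capitals. It lies 142 bases before the Il7r start (chr15:9529877-9530126, minus strand) and 154 bases before the Socs3 start (chr11:117969367-117969616, minus strand). The letters are absent from this window of Jak1 (chr4:101265224-101265473, minus strand) and of Pim1 (chr17:29490535-29490784, plus strand). The Il7r window holds 1 CpG, against a median of 6 over all mouse promoters, while Jak1 holds 19, Socs3 26 and Pim1 36.
Il7r: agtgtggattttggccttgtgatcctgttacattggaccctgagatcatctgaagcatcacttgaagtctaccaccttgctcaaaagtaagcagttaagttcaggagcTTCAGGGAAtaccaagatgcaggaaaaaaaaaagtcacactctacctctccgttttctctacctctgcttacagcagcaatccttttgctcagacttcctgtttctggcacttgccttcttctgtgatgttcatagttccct
Jak1: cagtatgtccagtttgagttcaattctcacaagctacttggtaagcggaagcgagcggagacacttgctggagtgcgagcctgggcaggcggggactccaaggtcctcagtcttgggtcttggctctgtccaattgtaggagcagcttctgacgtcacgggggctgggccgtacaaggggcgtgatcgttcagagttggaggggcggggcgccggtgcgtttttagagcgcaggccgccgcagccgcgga
Socs3: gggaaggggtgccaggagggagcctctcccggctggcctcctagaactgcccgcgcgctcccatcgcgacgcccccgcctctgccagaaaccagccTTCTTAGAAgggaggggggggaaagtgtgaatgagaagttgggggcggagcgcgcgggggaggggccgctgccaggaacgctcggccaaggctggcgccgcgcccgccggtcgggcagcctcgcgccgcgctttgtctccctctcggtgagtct
Pim1: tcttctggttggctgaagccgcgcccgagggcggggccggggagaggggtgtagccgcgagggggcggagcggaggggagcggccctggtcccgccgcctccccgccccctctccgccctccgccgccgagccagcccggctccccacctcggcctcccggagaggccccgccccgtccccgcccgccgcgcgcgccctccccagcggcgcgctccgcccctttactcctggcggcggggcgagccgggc

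The first question was which regions of these genes differed between KO and WT libraries. Counts were compared with edgeR's quasi-likelihood test over all regions of a target, and a region was called at a Benjamini-Hochberg adjusted p under 0.05. Values per library are CPM (reads of a region over the library's reads in all regions, scaled by TMM factors), fold changes are log2 of KO over WT with their standard error, and positions are in mm9. None of the 27 CTCF regions was called, where 0.0396% of all CTCF regions were (0.00792% higher and 0.0317% lower), and none of the 14 NIPBL regions, where 1.63% were (0.995% higher and 0.630% lower). At an unadjusted p under 0.05, edgeR had 1 CTCF and 2 NIPBL member regions, and DESeq2 called 0 of either. In RAD21, 1 of 22 regions was higher and 3 lower (of all regions 23.4% were called, 2.30% higher and 21.1% lower). In SMC3, 9 of 25 were higher and 0 lower (of all 40.2%, with 22.1% higher and 18.1% lower). In WAPL, 5 of 29 were higher and 7 lower (of all 40.7%, with 13.1% higher and 27.6% lower). In H3K27ac, 9 of 80 were higher and 8 lower (of all 16.5%, with 5.90% higher and 10.6% lower). In H3K4me1, 22 of 97 were higher and 14 lower (of all 16.4%, with 6.44% higher and 9.98% lower). The median log2 fold change of the members, beside that of all regions, was 0.40 and -0.37 in CTCF, 0.10 and 0.00 in NIPBL, 0.57 and -0.39 in RAD21 and 0.33 and -0.22 in SMC3. In WAPL it was 0.10 and 0.07, in H3K27ac 0.15 and 0.02, and in H3K4me1 0.10 and 0.00. The share of members above the background was widest for SMC3 and H3K4me1 gains, and these gains were unevenly spread: 4 of the SMC3 gains were at Pim1 and 14 of the H3K4me1 gains at Socs3.

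The split into higher and lower calls depended on the processing. Scaled on the 25% of regions with the lowest signal, WAPL had 12 higher and 2 lower member regions, and H3K27ac 4 higher and 16 lower. NIPBL, with no call, had 2 higher with that scaling and 1 lower with library totals. With DESeq2, which changes the test as well as the scaling, RAD21 had 6 higher and 0 lower. SMC3 had 9 higher and 0 lower also with library totals, background scaling and DESeq2, but 3 lower with input-subtracted counts and without either WT library, and 1 with the replicate block; H3K4me1 had more higher than lower with library totals (26 and 12) and background scaling (20 and 16). Over all regions, background scaling moved the share of calls that were higher from 55.0% to 72.5% in SMC3, from 32.1% to 65.9% in WAPL, from 61.2% to 86.6% in NIPBL (6.88% with library totals), from 35.8% to 12.6% in H3K27ac and from 39.2% to 26.6% in H3K4me1. DESeq2 moved it from 9.84% to 74.8% in RAD21. The median log2 fold change of all regions moved with background scaling from -0.22 to 0.15 in SMC3, from 0.07 to 0.52 in WAPL and from -0.39 to 0.47 in RAD21, where no region was then called; with DESeq2 it was 0.07 in RAD21.

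**Figure D1:**
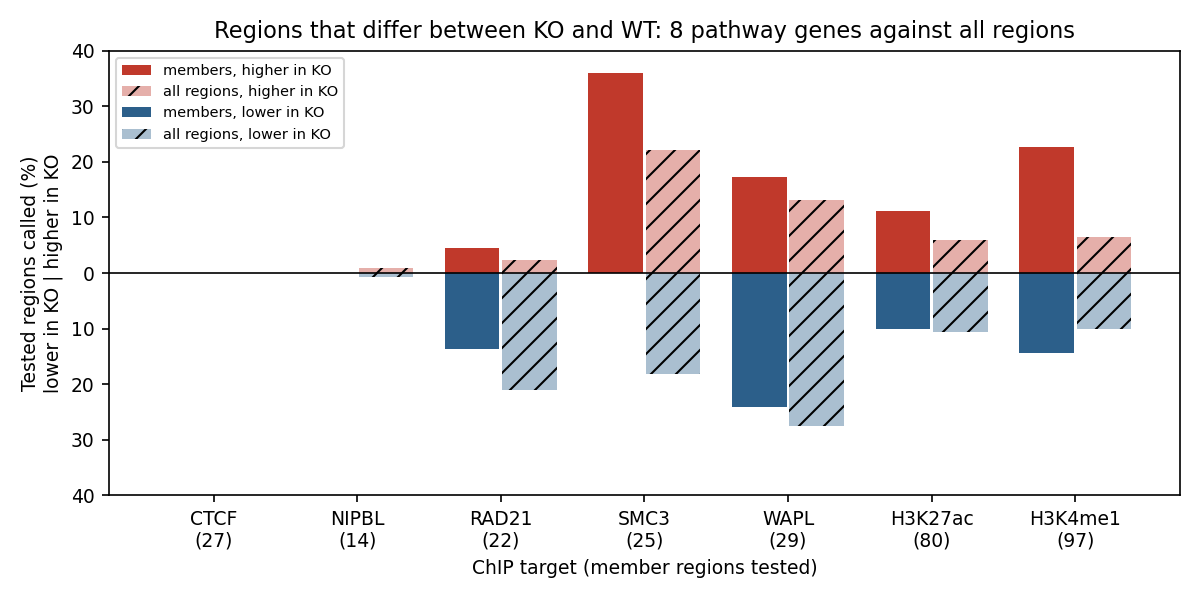
Percentage of tested regions that passed the test in each direction (y axis; up is higher in KO, down is lower), for the 8 genes (solid bars, number of regions under each target) and for all regions (hatched bars). The SMC3 bar of the members points only up, at 9 of 25 regions, and the H3K4me1 bar up is 22 of 97 regions against 6.44% of all regions.

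The genes differed in how much of the machinery lay near them. Il2rg and Jak3, which encode the common gamma chain and its kinase, had no region of CTCF, NIPBL, RAD21 or SMC3, and 1 WAPL region each. Il7r, for the receptor alpha chain, had 7 CTCF, 9 RAD21 and 11 SMC3 regions and 22 of each histone mark. Jak1 had 4 CTCF regions, Stat5a 4, Stat5b 3, Socs3 2 and Pim1 7. The number of regions near a gene depends on the space around it, so it is no measure of occupancy.

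SMC3 rose at every member SMC3 region that overlapped a CTCF peak of both KO libraries: 7 of 7 were called higher. Their median log2 fold change was 3.84, and they lay at Il7r, Jak1, Stat5a, Socs3 and Pim1. CTCF itself had 11 member regions of this kind, so some had no SMC3 region to compare. Across the genome 13412 of 13675 such SMC3 regions (98.1%) rose, with a median of 3.64. The rule for CTCF sites uses other libraries than the SMC3 comparison, but the SMC3 regions do not. Of all SMC3 regions, 8590 had SMC3 peaks in both KO lists and in no WT list. Both shares may thus follow in part from how regions were listed, and they are no independent support. Away from these sites, 2 of the 18 member regions tested, with a median of -0.05, were called higher, both described further on, while 5.73% of all such regions were higher and 21.9% lower. The members at CTCF sites thus moved as such sites did in general.

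Of the receptor genes, Il7r had 1 of these SMC3 regions, 47.5 kb upstream of its start (15:9507095-9507390). SMC3 stood there at 10.3 and 13.1 CPM in KO and 0.718 and 0.875 in WT. Both KO libraries were above both WT libraries, by 3.85 ± 0.29 on the log2 scale (14.5-fold, edgeR adjusted p = 0.000574). Jak1, the kinase bound to the IL-7 receptor alpha chain, had a site inside the gene, 96.8 kb downstream of the start (4:100840786-100841097), with 10 and 9.95 CPM in KO and 0.914 and 0.50 in WT. The groups did not overlap (3.80 ± 0.36, edgeR adjusted p = 0.000741).

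The site 34.0 kb downstream of the Stat5a start (11:100754659-100755210) had the highest SMC3 level of the 7, at 37.0 and 35.1 CPM in KO against 3.07 and 1.94 in WT, a rise of 3.84 ± 0.26 (edgeR adjusted p = 0.000571). It was the single SMC3 region of Stat5a, and it was also the one of the 7 with an SMC3 peak in both WT lists. Stat5b, which lies beside Stat5a on chromosome 11, had 1 SMC3 region, which overlapped no CTCF peak of both KO lists. That region, inside the gene 38.8 kb from its start, held 3.34 and 1.36 CPM in KO and 9.40 and 3.88 in WT. The KO values were the lower ones, but the region did not pass (-1.5 ± 0.61, edgeR adjusted p = 0.110).

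Socs3, which encodes a feedback inhibitor of JAK kinases, had its site 0.330 kb upstream of the start (11:117831011-117831573), at 19.6 and 19.2 CPM in KO and 1.04 and 1.31 in WT. SMC3 rose 16.3-fold there (4.02 ± 0.24, edgeR adjusted p = 0.000571), the one SMC3 region within 1 kb of a member start. Pim1, a kinase gene and STAT5 target, had 3 sites. The one inside the gene, 1.79 kb from the start (17:29629781-29630119), held 13.4 and 12.7 CPM in KO and 2.81 and 2.81 in WT (2.21 ± 0.21, edgeR adjusted p = 0.000787). It rose least of the 7, and its mean WT level was the highest. The site 22.1 kb downstream of the start (17:29650079-29650513) held 13.8 and 11.3 CPM in KO and 1.17 and 1.00 in WT (3.52 ± 0.27), and the one at 23.3 kb (17:29651267-29651831) 25.3 and 25.3 in KO and 1.44 and 1.25 in WT. Neither had overlapping groups. All 7 sites were called in each alternative in which they were tested; the Pim1 site at 1.79 kb has dense input reads (over 100 per kb) and was left out with such regions.

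CTCF itself, at the 11 member regions that overlap a CTCF peak of both KO libraries, was not called anywhere. At the Stat5a site it stood at 69.5 and 72.7 CPM in KO and 59.0 and 15.8 in WT (0.94 ± 0.59, edgeR adjusted p = 0.312). At the Socs3 site (11:117830889-117831714) it stood at 29.7 and 30.2 in KO and 20.4 and 6.33 in WT (1.19 ± 0.74, edgeR adjusted p = 0.311). WT replicate 2, the deep library, was the lowest at all 11 regions, with a median of 3.64 CPM against 13.1 in WT replicate 1 and 11.9 and 13.1 in KO. The median log2 difference was 0.94, beside 1.14 over all such CTCF regions. Without WT replicate 1, 24 of the 27 CTCF member regions were called (14 higher and 10 lower), and without WT replicate 2, 3 were called lower, so the comparison rested on which WT library was kept.

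RAD21, the partner of SMC3 in cohesin, was split between the KO libraries at the same places. Over 6 member sites its median was 8.77 CPM in KO replicate 1, 1.04 in KO replicate 2, 1.27 in WT replicate 1 and 1.56 in WT replicate 2. KO replicate 1 was above both WT libraries at all 6 sites and KO replicate 2 was within 0.417 to 1.95 CPM, close to the WT range of 0.625 to 2.50. At the Stat5a site the values were 17.4 and 1.95 in KO and 1.92 and 1.83 in WT, and at the Pim1 site at 22.0 kb they were 10.7 and 1.67 in KO and 0.668 and 1.29 in WT. None of the 6 was called (median 2.23; at Pim1 22.0 kb 2.66 ± 0.98, edgeR adjusted p = 0.0943). Of all 7670 RAD21 regions at CTCF peaks of both KO libraries, 0.847% were called higher and 0.261% lower, with a median of 1.84. A called RAD21 rise was thus rare at such sites in general, and its absence here is not particular to these genes.

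**Figure D2:**
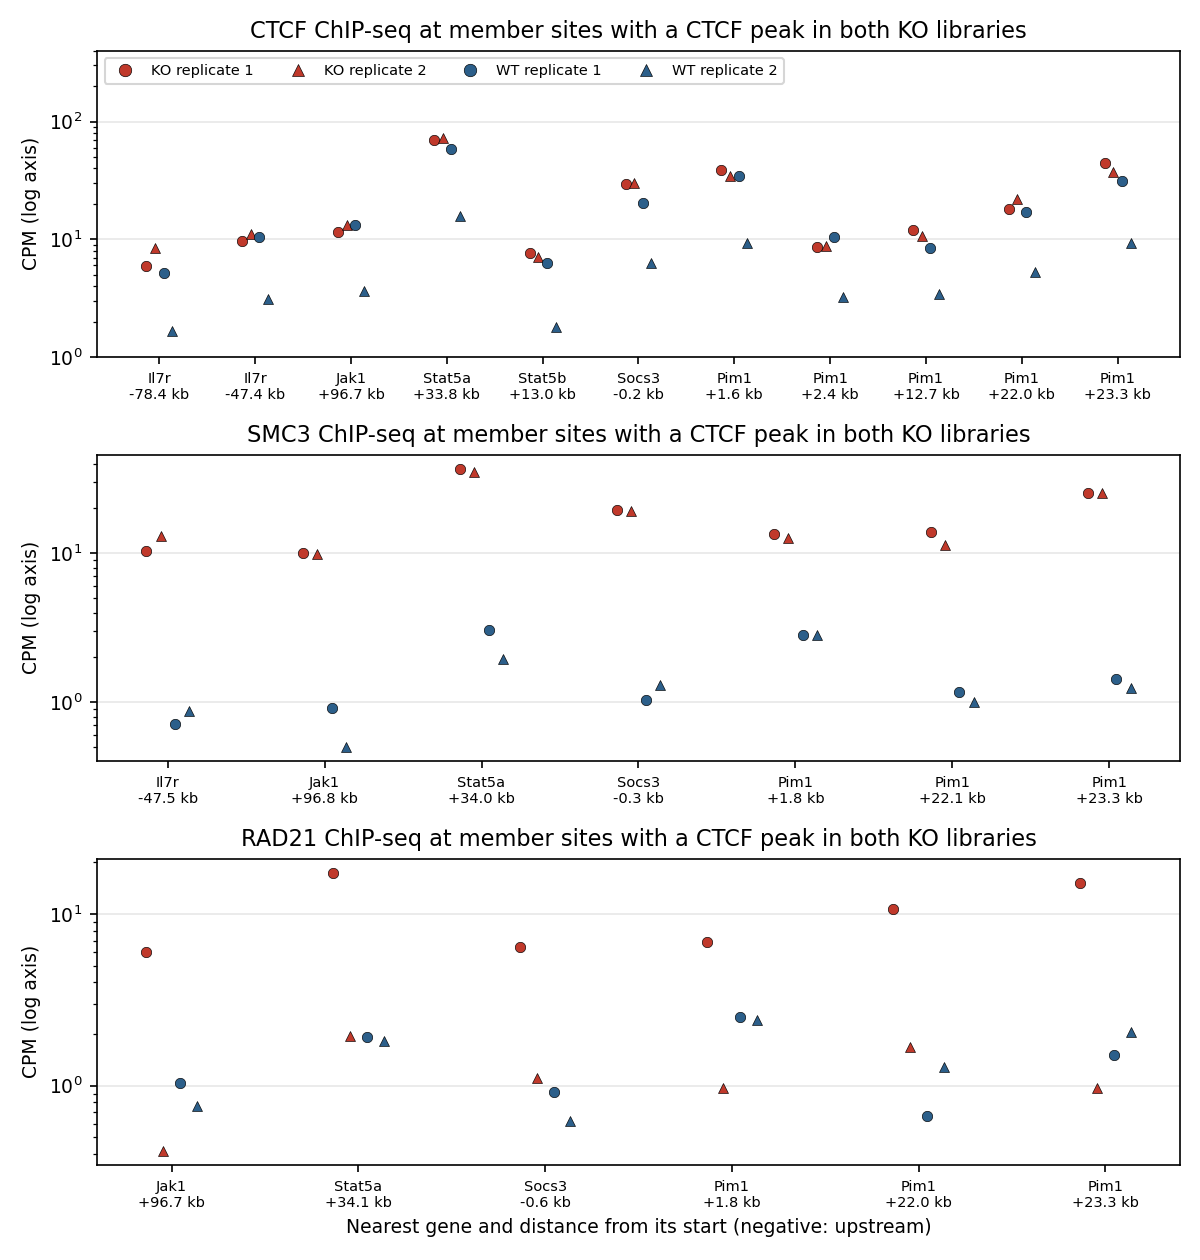
CPM (log axis) in each library at member regions that overlap a CTCF peak of both KO libraries, for CTCF (11 regions), SMC3 (7) and RAD21 (6); circles are replicate 1, triangles replicate 2, red KO and blue WT. SMC3 is higher in both KO libraries at all 7 sites, CTCF is lowest in WT replicate 2, and RAD21 is high in KO replicate 1 only.

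Upstream of Il7r, from 6 to 25 kb before the start, cohesin was present at regions without a CTCF peak in both KO lists, and here RAD21 and WAPL were lower in KO. Of 7 RAD21 regions, 3 were called lower and 0 higher, with log2 fold changes from -1.89 to -0.90. Over all RAD21 regions away from CTCF peaks of both KO lists 23.1% were lower. Of 8 WAPL regions, 7 were called lower, where 27.6% of all WAPL regions were, and all 8 fold changes lay between -1.92 and -0.22. The WAPL regions called at 22.4, 22.8 and 23.1 kb lay over the same RAD21 region (15:9482029-9483177). Those at 20.6 and 21.1 kb lay over another (15:9480227-9481866), so the 7 are not separate places. None of the 9 SMC3 regions, 8 of them tested, was called by edgeR, with fold changes from -0.70 to 0.33 and a smallest adjusted p of 0.0870. No region of the stretch overlapped an ATPneg peak.

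The RAD21 region 20.6 kb upstream (15:9480227-9481866) held 2.28 and 2.09 CPM in KO and 6.68 and 6.29 in WT, a fall of -1.57 ± 0.28 (edgeR adjusted p = 0.0433). The region 8.75 kb upstream (15:9468385-9469434) held 2.28 and 1.39 in KO and 5.34 and 5.22 in WT (-1.52 ± 0.37, edgeR adjusted p = 0.050, under the threshold before rounding). The groups were apart at both. WAPL over the second region (15:9468409-9469406) held 1.30 and 1.78 CPM in KO and 3.73 and 4.21 in WT (-1.37 ± 0.25, edgeR adjusted p = 0.0124), and SMC3 there held 4.53 and 3.39 in KO and 6.33 and 6.56 in WT (-0.70 ± 0.26, edgeR adjusted p = 0.0870). At this region SMC3 was lower in KO, as RAD21 and WAPL were, but by less and without a call. Over the stretch its median was -0.28, beside -1.52 for RAD21 and -1.10 for WAPL. All regions away from CTCF peaks of both KO lists had medians of -0.47 for SMC3 and -0.87 for RAD21. Differences between the proteins were not tested.

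These calls are fragile. The 7 WAPL calls were lost without KO replicate 1 and without KO replicate 2, when no WAPL member region was called, and the 3 RAD21 calls were lost without either WT library, with a replicate block and with background scaling. In a fit without dense-input regions, the 3 RAD21 fold changes became -0.02, -0.08 and -0.05 and 6 of the 7 WAPL fold changes became 0.38, 0.00, 0.33, 0.43, 0.20 and 0.18, none of them called.

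**Figure D3:**
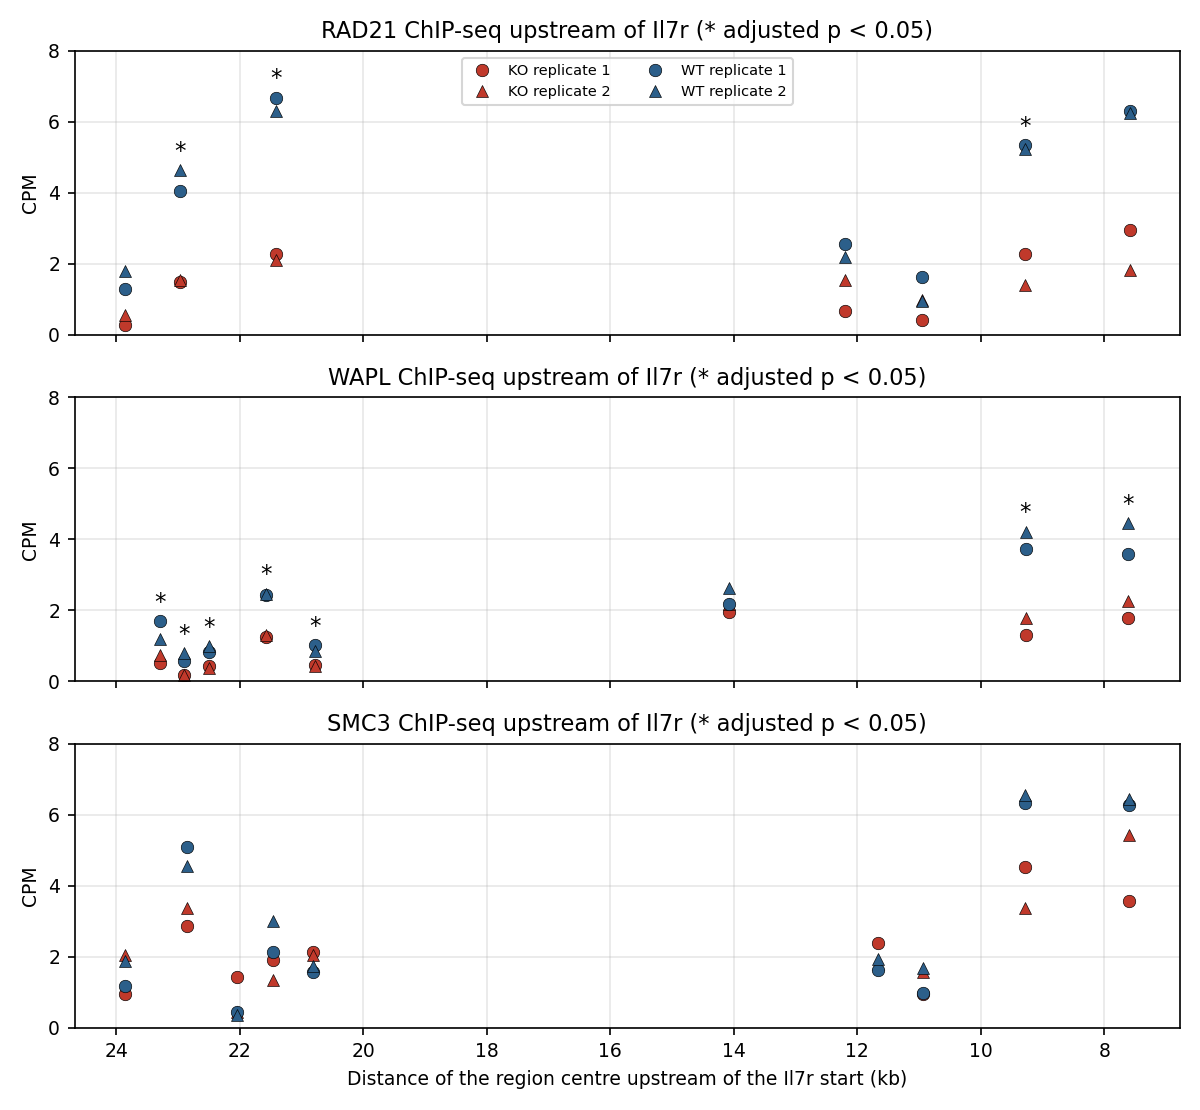
CPM in each library (y axis) of the RAD21, WAPL and SMC3 regions in the stretch before Il7r, by the distance of the region's centre from the start (x axis, kb); asterisks mark regions called by edgeR. Blue WT points lie above red KO points at the RAD21 and WAPL regions called. For SMC3 the gap is narrower, and the groups are apart at 5 of 9 regions.

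The other cohesin calls were scattered and mostly at dense-input regions, which hold over 100 reads per kb in the input as well. The highest levels of the members were of this kind: 60.7 kb upstream of Il7r, NIPBL stood at 32.9 and 32.1 CPM in KO and 36.4 and 38.2 in WT, and SMC3 at 24.8 and 20.6 in KO and 22.7 and 20.9 in WT. SMC3 was called higher 35.2 kb upstream of Jak1 (1.41 ± 0.25) and 36.7 kb upstream of Pim1 (1.44 ± 0.44), and RAD21 35.1 kb upstream of Jak1 (1.22 ± 0.29), all at such regions. WAPL was called higher at 5 regions, 1 each at Il2rg, Jak1, Stat5b, Socs3 and Pim1. At Il2rg (X:98466175-98466316, 2.63 kb upstream) it held 3.22 and 3.32 CPM in KO and 1.36 and 1.68 in WT (1.1 ± 0.23, edgeR adjusted p = 0.0171). All 5 have dense input and were lost without a KO library. The WAPL region of Jak3, 6.22 kb from the start, held 1.24 and 1.78 CPM in KO and 1.11 and 0.841 in WT and was not called (0.62 ± 0.31, edgeR adjusted p = 0.160). NIPBL fold changes of the 14 regions ran from -0.77 to 0.64.

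In the WT cells with oligomycin, peaks in both ATPneg lists overlapped 3 of 14 NIPBL member regions (21.4%, exact 95% interval 4.66 to 50.8%, counting error only), 5 of 22 for RAD21 (22.7%, 7.82 to 45.4%), 6 of 26 for SMC3 (23.1%, 8.97 to 43.6%) and 0 of 29 for WAPL (at most 11.9%). Over all regions the shares were 12.9%, 8.02%, 20.2% and 1.64%, which lie inside the intervals of the members, for RAD21 near the lower end. The intervals treat neighbouring regions as independent, so they cannot decide whether the members differ from all regions. With a stricter peak score the members had 0% for NIPBL, 22.7% for RAD21 and 23.1% for SMC3. All regions then had 8.23%, 4.19% and 16.8%. The 5 RAD21 regions were the CTCF sites of Stat5a and Socs3 and the 3 of Pim1, and the 6 SMC3 regions were these sites with that of Jak1. The Il7r site 47.5 kb upstream had an SMC3 peak in 1 of the ATPneg lists. In the untreated WT lists both replicates had a peak at 5 of 14 NIPBL, 4 of 22 RAD21, 4 of 26 SMC3 and 10 of 29 WAPL member regions (35.7%, 18.2%, 15.4% and 34.5%; 33.1%, 33.3%, 31.9% and 41.6% of all regions). In the KO lists they had one at 0 of 14, 2 of 22, 6 of 26 and 15 of 29 (0%, 9.09%, 23.1% and 51.7%; 1.81%, 7.82%, 11.2% and 35.4% of all regions). The share was lower in KO than in WT over all regions of each of the 4 proteins, and higher in KO among the members for SMC3 and WAPL; these differences were not tested. All 6 SMC3 regions with peaks in both ATPneg lists were thus among the 7 CTCF sites where SMC3 counts were higher in KO than in WT. Of all SMC3 regions at such CTCF sites 98.1% were called higher, so this holds for nearly any of them with an ATPneg peak. How many of all SMC3 regions with ATPneg peaks lie at such sites was not measured.

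H3K4me1 within 1 kb of a start was lower in the libraries labelled KO at 7 of 8 member regions, in 5 genes, and higher at 1, in Socs3. This was the course of starts in general: of 9693 such regions 56.1% were lower and 10.6% higher, with a median of -0.78. Elsewhere 21 of 89 member regions were higher and 7 lower, beside 6.20% and 7.35% of all. Summed over the starts of the pre-B markers, H3K4me1 was 213 and 206 CPM in KO and 378 and 385 in WT. Over the T cell markers with a region (4 of 7) it was 9.06 and 11.6 in KO and 7.44 and 6.88 in WT, over the myeloid ones (4 of 7) 14.0 and 14.8 against 8.98 and 11.4, and over the erythroid ones (2 of 6) 92.5 and 90.7 against 109 and 113. The part of other cells in the start values was not tested.

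At Il7r, the region from 679 bases into the gene (15:9458171-9458952) held 2.07 and 1.57 CPM in KO and 6.82 and 7.15 in WT, a fall of -1.95 ± 0.18 (edgeR adjusted p = 2.59e-25). The region at the start itself (15:9459086-9459624) held 1.09 and 1.86 in KO and 3.53 and 3.38 in WT (-1.21 ± 0.22, edgeR adjusted p = 9.65e-07). KO was the lower group at both, with no overlap. Il2rg, for the common gamma chain, held 0.365 and 0.465 CPM in KO and 1.36 and 1.27 in WT at its start (X:98463284-98463445; -1.64 ± 0.42, edgeR adjusted p = 0.00123), at low counts, and DESeq2 did not call it (adjusted p = 0.117).

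At the start of Jak1 (4:100937023-100937997) H3K4me1 held 1.40 and 2.21 CPM in KO and 6.40 and 6.07 in WT (-1.78 ± 0.18, edgeR adjusted p = 4.24e-20). The Stat5b start (11:100711334-100712417) held 3.59 and 3.60 in KO and 5.69 and 4.23 in WT (-0.44 ± 0.16, edgeR adjusted p = 0.0396), the smallest of the falls. The groups did not overlap in either gene, but the Stat5b call was lost in 7 of 11 alternatives. Stat5a and Jak3 had no H3K4me1 region within 1 kb of the start. Per kb of region, the mean H3K4me1 level in the WT libraries was 9.50 CPM at the Pim1 start, 8.13 at Il2rg, 6.41 at Il7r (the region at the start itself), 6.40 at Jak1, 4.58 at Stat5b and 1.27 at Socs3. In the KO libraries the order was 4.65 at Socs3, 3.32 at Stat5b, 2.74 at Il7r, 2.56 at Il2rg, 2.30 at Pim1 and 1.85 at Jak1. The Il7r region at 679 bases held 8.93 in WT and 2.32 in KO. Socs3 was thus the lowest of the 6 starts in WT and the highest in KO. Its start region was listed through KO peaks, so this place in the order depends in part on how regions were chosen. Il7r and Jak1 were level in WT.

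Among the starts, the H3K4me1 fold change furthest from 0 was that of Pim1, with that of the Il7r region at 679 bases within its standard error. The Pim1 start region (17:29627751-29630623) held 6.14 and 7.09 CPM of H3K4me1 in KO and 27.8 and 26.8 in WT, and the region 581 bases upstream 2.61 and 2.67 in KO and 8.84 and 8.46 in WT. They fell by -2.04 ± 0.09 (edgeR adjusted p = 1.81e-91) and -1.71 ± 0.15 (edgeR adjusted p = 4.86e-26). H3K27ac over the start (17:29627752-29629084) went the other way: the libraries labelled KO held 7.98 and 8.08 CPM and those labelled WT 2.90 and 3.01 (1.44 ± 0.13, edgeR adjusted p = 3.55e-19). Per kb of region this is 2.30 for H3K4me1 KO, 9.50 for H3K4me1 WT, 6.02 for H3K27ac KO and 2.22 for H3K27ac WT, in CPM. The deposited H3K27ac peak lists have a peak here in both WT lists and in neither KO list, opposite to the counts. Both calls held in all 11 alternatives. Whether labels were exchanged among these libraries was not tested.

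**Figure D4:**
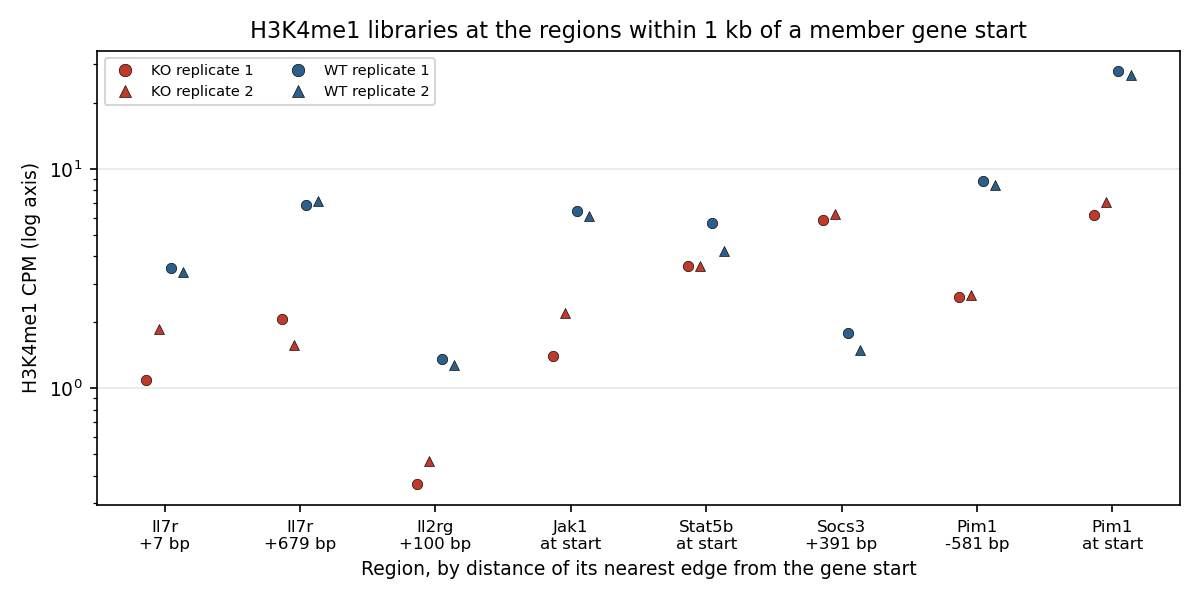
H3K4me1 CPM (log axis) in each library at the 8 regions within 1 kb of a member start; red is labelled KO, blue WT, circles replicate 1 and triangles replicate 2. Red lies below blue at 7 regions and above it at Socs3, where KO held 5.83 and 6.22 CPM and WT 1.79 and 1.5.

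Socs3 was the exception among the starts and in its surroundings. Its start region (11:117828995-117830289) rose by 1.88 ± 0.18 (5.83 and 6.22 CPM in KO, 1.79 and 1.5 in WT; edgeR adjusted p = 2.65e-22). Within 25 kb of the start, 13 of 19 H3K4me1 regions were higher and 0 lower, with a median of 1.69 and a range of -0.02 to 2.42. In all, 14 of its 22 regions were higher. The region 19.1 kb downstream of the start (11:117810449-117811540) held 5.77 and 5.17 CPM in KO and 1.18 and 0.884 in WT (2.42 ± 0.21, edgeR adjusted p = 8.35e-28), and that at 17.1 kb 7.29 and 9.82 in KO and 1.88 and 2.11 in WT (2.09 ± 0.16, edgeR adjusted p = 1.35e-35). KO was the higher group at both, with no overlap. Each of the 14 regions had a peak in at least 1 of the deposited KO lists, and 1 of them, at 21.0 kb, in the WT lists. Most were thus listed through KO peaks, from the libraries in which the mark was high. The number of higher calls therefore depends in part on how regions were chosen, and the peaks are no separate support. Of the 14 calls, 12 held in every alternative in which they were tested; those at 9.25 and 38.0 kb did not. The rest of the 22 regions, among them those at 8.78, 12.2, 14.2 and 21.9 kb, differed by -0.02 to 0.85 and were not called.

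H3K27ac followed in only part of the Socs3 stretch: of 13 regions 4 were higher and 2 lower. The region 17.4 kb from the start held 1.34 and 0.976 CPM in KO and 0.305 and 0.257 in WT (2.03 ± 0.39, edgeR adjusted p = 1.5e-05). The lower ones lay at 21.9 kb (-0.61) and 45.5 kb (-0.63). The higher calls at 16.4 and 21.5 kb were lost with background scaling.

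Away from the starts, the genes other than Socs3 had 8 higher and 7 lower H3K4me1 regions. Downstream of the Il7r start, 4 H3K4me1 regions between 34.6 and 38.8 kb were lower, and the one at 35.5 kb (15:9422083-9424094) held 7.05 and 7.73 CPM in KO and 15.0 and 15.7 in WT (-1.06 ± 0.10, edgeR adjusted p = 1.99e-22). That region was called in all 11 alternatives, and the other 3 were not. Jak1 had lower H3K4me1 27 kb upstream (-0.90 ± 0.17) and inside the gene at 78.5 kb (-0.43 ± 0.09) and 82.3 kb (-1.08), and was higher at 72.3 kb (0.54 ± 0.19). Il7r was higher 47.9 kb upstream (0.64 ± 0.18). In Stat5b the mark was higher 24.0 kb from the start, with 3.04 and 2.44 CPM in KO and 0.941 and 1.000 in WT (1.48 ± 0.26, edgeR adjusted p = 2e-07), and at 8.85 kb (0.68 ± 0.18). Pim1 rose at 3.54 kb (0.87 ± 0.18), 9.83 kb (1.51 ± 0.44) and 10.4 kb (1.32 ± 0.30), beside the fall at its start. Stat5a had 1 higher region (0.63 ± 0.23, 2.94 kb upstream), lost in most alternatives, and the one of Jak3 was not called (0.66).

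H3K27ac at starts was called at Pim1 and, lower, at Jak1 (4:100937322-100937834), where it held 0.501 and 0.222 CPM in KO and 1.11 and 0.698 in WT (-1.29 ± 0.41, edgeR adjusted p = 0.0149; lost in 5 of 11 alternatives). Over all starts 8.48% of 5566 regions were higher and 22.2% lower. The start of Il7r was not called in either of its regions (0.25 and -0.24). Away from starts, Il7r had 3 higher regions, at 4.77 kb (0.77 ± 0.28) and, upstream, at 18.2 kb (0.80 ± 0.28) and 103 kb (0.95 ± 0.29), and Stat5a 1 at 23.4 kb (0.88 ± 0.30); each was lost in at least 4 of 11 alternatives. The single lower region of Il7r lay at the dense-input site upstream (15:9520264-9520486), at 11.7 and 12.2 CPM in KO and 20.9 and 19.7 in WT (-0.77 ± 0.08, edgeR adjusted p = 1.96e-17). Jak1 was lower at 33.8 kb (-0.42 ± 0.10), Stat5b at 32.1 kb (-0.60 ± 0.15) and Pim1 at 13.7 kb (-0.48 ± 0.09). Each of the last 3 was a difference of less than 1.5-fold or close to it.

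**Figure D5:**
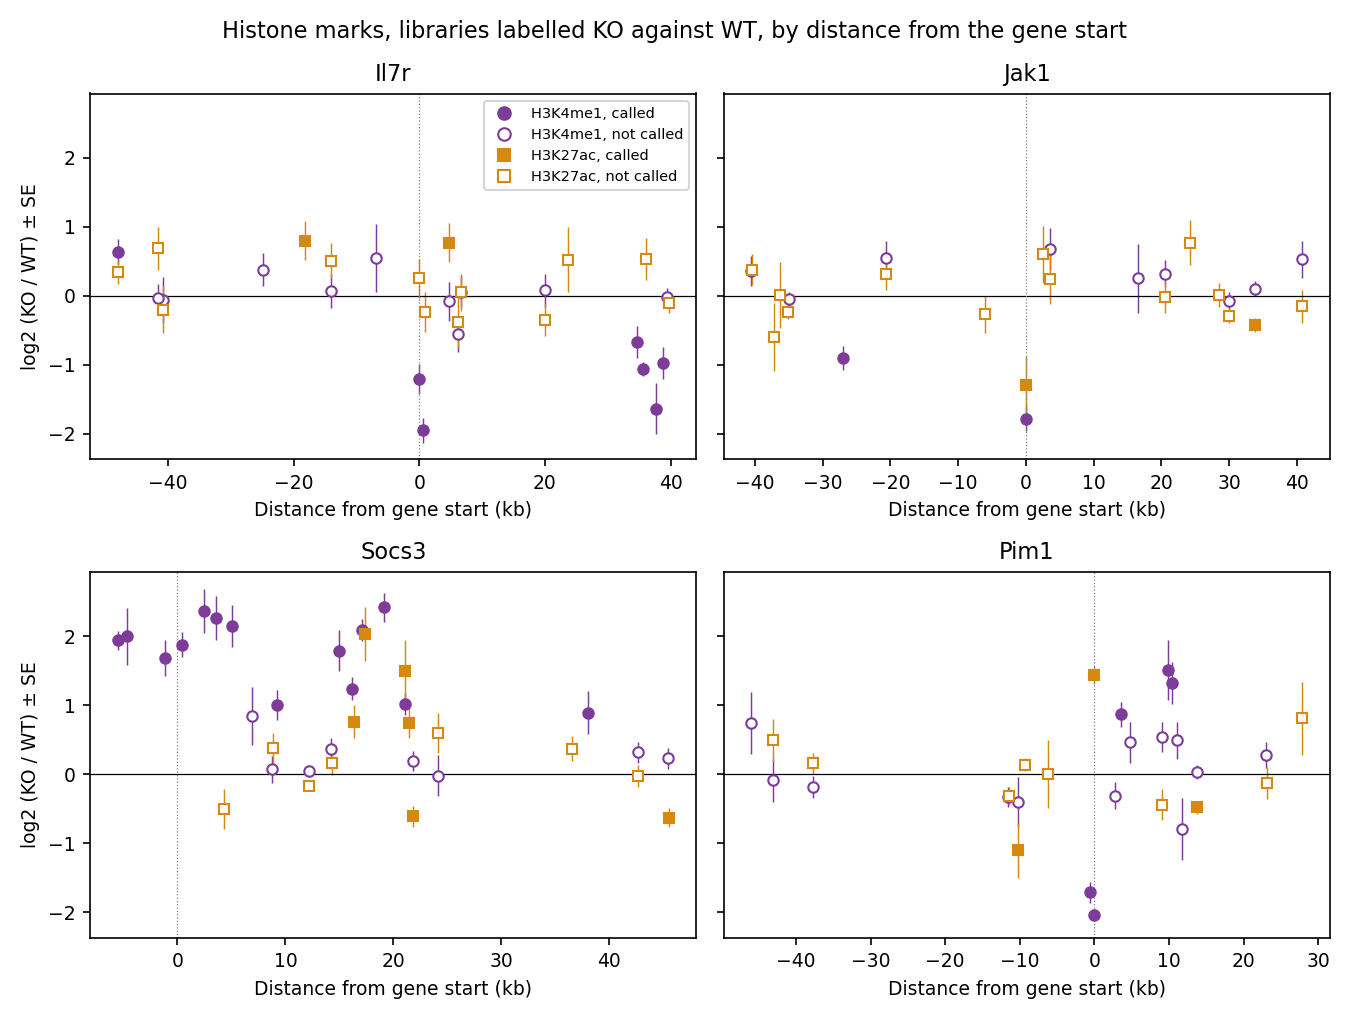
Log2 fold change of the libraries labelled KO over WT, with its standard error (y axis), against distance from the gene start (x axis, kb, negative is upstream), for H3K4me1 (circles) and H3K27ac (squares) regions within 50 kb; filled symbols were called. Filled circles lie below 0 at the starts of Il7r, Jak1 and Pim1, and above 0 over much of the stretch around Socs3.

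With all regions of a gene summed, SMC3 was higher at 3 of 6 genes and lower at 1, where 64.2% of all genes were called, 34.5% higher and 29.7% lower. Stat5a held 39.4 and 37.4 CPM in KO and 4.36 and 3.39 in WT (3.30 ± 0.26, edgeR adjusted p = 0.000469). Socs3 rose by 1.99 ± 0.25 and Pim1 by 2.07 ± 0.20, with no overlap between groups. Stat5b fell, from 13.3 and 6.79 CPM in WT to 3.56 and 1.45 in KO (-2.01 ± 0.54, edgeR adjusted p = 0.0173). This sum is the single Stat5b region that did not pass among regions, and the call was lost with library totals, with input-subtracted counts and without KO replicate 2 (adjusted p = 0.147). The sums of Il7r (-0.41; -1.14 to 0.23 over the alternatives, and called in some) and Jak1 (-0.07) were not called.

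H3K4me1 sums were called for 6 of 8 genes, 3 higher and 3 lower (of all genes 41.2% were called, 17.9% higher and 23.3% lower). Socs3 held 132 and 132 CPM in KO and 70.2 and 69.3 in WT (0.92 ± 0.04, edgeR adjusted p = 4.54e-29). Il7r fell by -0.28 ± 0.04 and Pim1 by -0.44 ± 0.04, each with KO below WT in both libraries. The calls of Il2rg (-0.39), Jak3 (0.72 ± 0.28) and Stat5a (0.20) were lost in several alternatives. WAPL sums were called higher for Il2rg (0.98) and Stat5b (0.62) and lower for Jak1 (-0.32), where 32.7% of all genes were called, 10.5% higher and 22.2% lower. NIPBL was called higher for Jak1 alone (0.33 ± 0.10, edgeR adjusted p = 0.0445; of all genes 11.1% were called, 4.63% higher and 6.49% lower), and not in most alternatives. No sum was called by edgeR for CTCF or RAD21 (6 genes each; 0% of all genes), or for H3K27ac (8 genes; 36.9% of all genes called, 16.3% higher and 20.7% lower). At an unadjusted p under 0.05 edgeR had 0, 2 and 3 of these sums, and DESeq2 called 0 for each target.

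The other 46 genes of the pathway, from cytokines to STAT5 targets, showed how far these patterns extended. In SMC3 sums 21 of 40 tested were higher and 5 lower (median 0.85, beside the 34.5% and 29.7% above). By role, 5 of 7 targets were higher, 3 of 5 kinases and STATs, 8 of 13 adaptors (2 lower), 3 of 8 ligands and receptors (1 lower) and 2 of 7 negative regulators (2 lower); differences between roles were not tested. Cish, a STAT5-induced inhibitor related to Socs3, held 13.7 and 13.0 CPM in KO and 1.58 and 1.2 in WT (3.25 ± 0.33), Bcl2l1, a survival gene, rose by 3.01 ± 0.21 and Jak2 by 3.0 ± 0.30, while Gab2, an adaptor, fell by -1.62 ± 0.24. In H3K4me1 sums 10 of 45 were higher and 21 lower (median -0.10), beside 17.9% and 23.3% of all genes. Stat6 fell from 26.3 and 27.2 CPM in WT to 10.9 and 11.6 in KO (-1.25 ± 0.09), Pim2, the relative of Pim1, fell by -1.04 ± 0.13 and Mcl1, a survival gene, by -0.70 ± 0.04. Ptpn6 (0.50 ± 0.08), Ccnd2 (0.40 ± 0.08) and Cish (0.34 ± 0.08) rose, less than Socs3. In H3K27ac 11 of 42 were higher and 7 lower (16.3% and 20.7% of all genes), with Socs1 lower (-0.38 ± 0.03) and Bcl2l1 higher (0.50 ± 0.11). WAPL had 5 higher and 5 lower of 36 (10.5% and 22.2% of all genes). NIPBL had 1 and 2 of 30 (4.63% and 6.49%), and CTCF (44 tested) and RAD21 (34) none, as among all genes.

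The genes whose sums followed each member most closely over the 28 KO and WT ChIP libraries, among 10240 genes, differed from member to member. For Il7r they were Hivep1, Clnk and Klf7 (Pearson r 0.911, 0.908 and 0.906), for Jak1 Cacna1e, Rnf11 and Hbs1l (0.933, 0.924 and 0.918), and for Stat5a Rbms2, Eif4b and Sfxn4 (0.985, 0.975 and 0.963). For Stat5b they were Zfp36l2, Sema4c and Scn11a (0.906, 0.902 and 0.891), for Socs3 Map3k14, Gm11529 and Slc12a3 (0.958, 0.954 and 0.954), and for Pim1 F5, Grn and Plxdc1 (0.957, 0.954 and 0.947). The libraries share depth and target, which enter these values. No member was among the 3 nearest genes of another member, and Il2rg and Jak3 lack the regions for this measure.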

How the data were processed

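The authors deposited counts of reads per region for each KO and WT library of 7 targets, together with 1 input column per genotype for the 5 protein targets. They also deposited input-subtracted counts (a score per region and library), a normalized signal made from these by a constant per column that is not stated, and peak lists with a score per peak. BWA, Picard, MACS2, bedtools, featureCounts and edgeR are named for build mm9 in the submitters' processing notes; versions are not given in the sources used here. The 2 external input columns were not used. The signal entered no test.

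KO and WT counts, 2 libraries each, were compared with edgeR 4.0.16 (R 4.3.3; TMM, filterByExpr, quasi-likelihood F test, Benjamini-Hochberg over all regions or all genes of a target), which measures only the spread between these samples. DESeq2 1.42.0 was an alternative. Gene sums add the regions whose nearest gene within 200 kb is the same. Peaks overlapped at 1 bp or more. Likeness used log2 (CPM + 1) of gene sums. The procedure was tested on simulated data. Other steps ran in Python 3.11.15 (matplotlib 3.10.9, pandas 2.3.3, scipy 1.17.1, numpy 2.4.6). The regions named are, per gene and target, the one nearest the start, the called one with the smallest p in each direction and the one with the highest CPM; others were named after their values were seen. The members and lists were chosen with earlier results of these data known.

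Each library was left out in turn. Other alternatives were a replicate block, DESeq2, library totals, scaling on the 25% of regions with least signal, input-subtracted counts and no filter above 1 read. Gene sums were repeated with regions within 50 kb, and peak overlaps with a stricter score, with 50% overlap and over the union of replicates. A 1.5-fold threshold and a fit that leaves out regions of dense input (over 100 reads per kb) were also run; crossed pairs were added after the data were seen.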

Additional observations from a re-analysis of the deposited data

How the results depend on the processing

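The number of SMC3 member calls stayed within 1.5 times the 9 reported in every alternative run, but calls in the lower direction, 0 as reported, were 3 with input-subtracted counts, 3 without either WT library and 1 with the replicate block. For RAD21 (4 calls) 0 regions were called with background scaling, no filter, input-subtracted counts, the replicate block, the 1.5-fold threshold or without dense-input regions, and 0 to 14 with a library left out. For WAPL (12 calls) DESeq2 gave 2, input-subtracted counts 3, the replicate block 6, the 1.5-fold threshold 2, the fit without dense-input regions 0, and a library left out 0 to 17. For H3K27ac (17) DESeq2 gave 3, with no adjusted p for some regions, input-subtracted counts 10 and the 1.5-fold threshold 2. For H3K4me1 (36) DESeq2 gave 21 and the 1.5-fold threshold 22. CTCF had 0 to 24 calls with a library left out. NIPBL, with 0 calls, had 1 with library totals, 2 with background scaling and 2 with the replicate block.

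In gene sums, CTCF had 0 to 5 member calls and RAD21 0 to 4 with a library left out. NIPBL (1) had 0 with background scaling, DESeq2, input-subtracted counts, regions within 50 kb and each library left out (0 to 0). WAPL (3) had 5 with library totals, 1 with DESeq2, 0 with input-subtracted counts and 0 to 4 with a library left out. H3K27ac (0) had 2 with library totals, 4 with background scaling, 1 with input-subtracted counts, 1 with the replicate block, 2 within 50 kb and 0 to 1 with a library left out. H3K4me1 (6) had 3 with DESeq2 and 3 to 6 with a library left out. Of the 3 NIPBL regions with ATPneg peaks, 0 passed a stricter peak score.

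Some values turned. The SMC3 region of Il7r at the dense-input site (0.06) became -9.41 with input-subtracted counts; 6 WAPL regions of Il7r became 0.38, 0.00, 0.33, 0.43, 0.20 and 0.18 without dense-input regions; a WAPL region inside Jak1 (4:100884779-100884893) became -0.66 without WT replicate 1 and 1.09 without WT replicate 2; and the H3K27ac sum of Il7r became 0.25 within 50 kb. The cause was not tested.

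The labels do not say whether a replicate number marks a shared animal or day. Same-numbered libraries had correlations of their deviations from -0.208 to 0.0345 over regions and from -0.314 to 0.0952 over gene sums. With 2 libraries per group these values cannot decide whether the samples were paired. With the replicate block the member calls were 36 in H3K4me1, 19 in H3K27ac, 10 in SMC3, 6 in WAPL, 2 in NIPBL and 0 in both CTCF and RAD21. With crossed pairs, chosen after seeing the data, CTCF had 0 regions and 0 gene sums called and SMC3 4 gene sums.

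Each group had 2 libraries, and for SMC3, RAD21 and NIPBL the KO libraries held fewer reads than the WT libraries and give less precision at regions with few reads. The smallest difference detectable was not measured.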
